A study of Mus musculus with 13 samples.

Results

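Deep-layer-type Hs3st4/Foxp2 excitatory neurons were described here in single-nucleus RNA data from the mouse hippocampus. A nucleus was a member if its barcode held at least 500 genes and at most 5% mitochondrial counts, and if at least 3 of the genes Hs3st4, Foxp2, Rxfp1 and Sulf1 were detected with a sum of at least 10 per 10000 unique molecular identifiers (UMIs, counts of distinct captured RNA molecules). It also had fewer than 2 UMIs of Gad1 and Gad2 together, fewer than 3 UMIs of Fn1 and none of Prox1. By this rule 2696 of 105427 retained barcodes, or 2.56%, were members. The 4 marker genes and the 4 limiting genes therefore chose the nuclei, and their values are given only as a description.

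The study profiled whole frozen hippocampi of female mice of the C3B6F1 hybrid strain (spelled C3HB6F1 in the sample labels), with 1 library per mouse from sorted nuclei. All animals were fed either ad libitum (AL) or a restricted diet (dietary restriction, DR), and the labels name no engineered allele. The groups were 3 young AL mice of 5 months, 3 old AL mice of 24 months, 3 old mice of 24 months with acute DR begun at 20 months, and 4 old mice of 24 months with long-term DR begun at 5 months. The old AL libraries carry the numbers 1, 2 and 4 in their labels, and number 3 was not analysed here. Nothing in the labels says which animals shared a cage, a litter or a preparation day.

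Neurons with these markers are best known from the deepest layers of the cerebral cortex. Foxp2 is a forkhead transcription factor found in layer 6 neurons whose axons run to the thalamus, and Tbr1, Tle4 and Fezf2 are regulators of the same deep-layer identity. Hs3st4 adds sulfate groups to heparan sulfate, the sugar chain of many cell-surface proteins that bind growth factors and guidance cues, and Sulf1 removes sulfate groups from the same chains outside the cell. Rxfp1 is the receptor of the hormone relaxin. Layer 6b, the thin sheet below layer 6 that descends from the embryonic subplate, is known for Ccn2, Cplx3 and Moxd1.

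The marker genes lie on different chromosomes of the mm10 build. Hs3st4 spans chr7:123982869-124398989 on the plus strand, Foxp2 chr6:14901349-15441977 on the plus strand, Rxfp1 chr3:79641611-79737880 on the minus strand and Sulf1 chr1:12692277-12861192 on the plus strand. Of the members, 2128 held 3 of the markers and 568 held all 4. The marker sum had a median of 36.4 per 10000 UMIs and a highest value of 106. The lowest sum among members was 10.0 and the highest among nuclei that missed only this threshold was 9.93. A total of 327 barcodes missed only the marker sum, 244 missed only the Prox1 limit, 121 only the Fn1 limit and 26 only the limit on Gad1 and Gad2.

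Depth and sources of doubt were looked at first. The 13 libraries held 38546292 to 80538090 UMIs, and members had a median of 8290.5 UMIs. In all, 1351 of 104066 barcode sequences occurred in more than 1 library, and 2 members shared a sequence with each other. Acute DR mouse 2 gave only 20 members, so the differences in share that involve the acute group are also given without it. Without it edgeR called no gene in either acute comparison. Among all retained barcodes, 7386 (7.01%) had the highest doublet scores of Scrublet, a caller for droplets with 2 nuclei, and 168 members (6.23%) were among them.

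All 4 markers were found in the members of every mouse. Summed over the members of a mouse, Hs3st4 stood between 2395 and 3141 CPM (counts scaled to the same total in every mouse, by the usual per-million convention), with a median of 2933. Foxp2 ranged from 251 to 457 CPM with a median of 319, Rxfp1 from 130 to 274 with a median of 200, and Sulf1 from 61.4 to 205 with a median of 162. Prox1 was at 0 in every mouse by the rule, and Fn1 was between 4.11 and 20.2 CPM. These CPM values are not divided by gene length, so they order mice for 1 gene and do not rank the genes against each other.

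Hs3st4 and Rxfp1 were the markers without overlap between young and old AL mice. Hs3st4 was 2951, 2395 and 2814 CPM in the young AL mice and 3042, 3091 and 3002 in the old AL mice, so every old mouse was higher. The level of Rxfp1 was 253, 209 and 242 CPM in the young AL mice and 142, 149 and 195 in the old AL mice, so every old mouse was lower. It was 130, 167 and 213 CPM under acute DR and 274, 215, 200 and 190 under long-term DR. Because both genes helped to choose the nuclei, no test was made of these levels. Median UMIs per member, given below, did not overlap between young and old AL mice either. Rxfp1 stood at 111 CPM in cluster 8 of the clustering described below, which was uneven between mice. The part of depth and of the cluster mix in these levels was not tested.

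Members had a glutamatergic profile and carried some layer 6 genes beyond the genes of the rule. Slc17a7, the vesicular glutamate transporter of cortical and hippocampal excitatory neurons, was detected in 1924 members and stood between 111 and 273 CPM per mouse. The 10 layer 6 corticothalamic genes outside the rule summed to a median of 3716 CPM over mice. Fn1 excitatory nuclei, a class known from the subiculum, were non-members chosen by at least 3 Fn1 UMIs and a Slc17a7 UMI. In them the 10 genes summed to 1015. The 8 cortical excitatory genes, Slc17a7 among them, summed to 1447 CPM in members and 1365 in the Fn1 nuclei. A Slc17a7 UMI was required of the Fn1 nuclei and of the other classes below, but not of members, so these sums are not chosen alike. Most of the layer 6 sum in members came from the transcription cofactors Zfpm2 and Tle4 and from Thsd7b and Garnl3. Their medians were 1684, 463, 868 and 525 CPM in members and 410, 146, 23.6 and 250 in the Fn1 nuclei. Thsd7b ranged from 206 to 1505 CPM over the mice. Tbr1 had 27.6 CPM in members against 9.3 in the Fn1 nuclei. Fezf2 and Crym stood the other way, with 32.8 and 52.2 CPM in members against 41.6 and 63.6 in the Fn1 nuclei. Ntsr1, a widely used marker of corticothalamic cells, was close to nothing, with a median of 4.3 CPM and 0 in some mice, and Syt6 had a median of 6.1 CPM.

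The layer 6 sum was not particular to members. In nuclei chosen by Cwh43, Hs3st2 and Col5a1, the same 10 genes summed to a median of 3945 CPM. Zfpm2 stood at 1814 and Thsd7b at 1060 there. In nuclei chosen by Otof, Dpp4 and Chrm2 the 10 genes summed to 1832 CPM. Both classes were chosen after members were set aside. Members also carried genes of the Cwh43 choice. In the clustering described below, Cwh43 stood at 79.8 CPM in cluster 2 and Col5a1 at 130 in cluster 3. Whether the Cwh43 nuclei are another kind of neuron was not tested. The 8 cortical excitatory genes summed to medians of 1555 and 1854 CPM in the Cwh43 and Otof classes. These classes held 291 and 349 nuclei, and the Fn1 class 916. All of these differences between classes are descriptions, because classes chosen by their genes differ by construction.

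Genes with the highest level in members against the 3 other classes together are described without a test, and those given are some of the 20 with the largest log2 difference. Sfmbt2, first among them, had a mean of 82.6 CPM in members and 23.8 in the other classes, with 85.9 in the Cwh43 class. Cdh18, a cadherin, had a mean of 1676 CPM over mice in members and 450 in the other classes. Nfia, a nuclear factor I transcription factor, stood at 385 against 107 CPM, Thsd7b at 921 against 251 and Ano3 at 755 against 233. Several of these were about as high in the Cwh43 class, where Thsd7b had a mean of 1049 CPM and Lpar1, a receptor for lysophosphatidic acid, had 87.8 against 72.6 in members. Hs3st5, another heparan sulfate sulfotransferase, had a mean of 167 CPM in members against 78.4 in the Cwh43 class, 60.5 in the Otof class and 32.1 in the Fn1 nuclei. Within members it stood at 677 CPM in cluster 1 of the clustering described below and at 85.6 in all other members, close to the Cwh43 class.

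Several lists of other cells were low, but lists of several other excitatory neurons were not. Near-projecting layer 5/6 genes summed to 824 to 2499 CPM per mouse, and upper and middle layer genes to 401 to 659. CA1 genes summed to 391 to 478 CPM, CA3 genes to 239 to 369.5 and subiculum genes outside the rule to 143 to 396. The inhibitory genes outside the rule summed to 0 to 13 CPM per mouse, Cajal-Retzius genes to 0 to 55, endothelial genes to 0 to 8, and granule neuron genes to 22 to 113. Oligodendrocyte genes summed to 63 to 200 CPM and precursor genes to 105 to 280. The astrocyte sum of 480 to 714 CPM was almost all Slc1a2, a glutamate transporter that stood between 452 and 699, while Aqp4, Gja1 and Gfap did not pass 10.3 CPM in any mouse. Thalamic genes summed to 123 to 348 CPM, of which Ntng1 gave 33.5 to 318, and Gbx2 was the only 1 of 8 at 0 in every mouse. The striatal sum of 783 to 1701 CPM came almost wholly from the phosphodiesterase gene Pde10a. The part of these RNAs in the results below was not tested.

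Members fell into 16 clusters when grouped on 2000 variable genes without the 8 genes of the rule. These clusters were made from the same values that define them, so their genes are described without a test. Clusters 1 to 4 were the most numerous and held 424, 400, 310 and 281 nuclei.

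Clusters 1 and 4 were each low in a different marker gene. Cluster 1 was led by Sema3d, a secreted guidance cue at 183 CPM against 17.3 in the other members, by Hs3st5 at 677 against 85.6, and by Slit2, the ligand of Robo receptors, at 774 against 155. It had little Rxfp1, with 57.0 CPM, and 313 of the 949 members without a Rxfp1 UMI were in it. Cluster 4 was led by Mctp2 at 199 against 26.4 CPM and Cntnap3 at 200 against 29.6. It had little Sulf1, with 65.7 CPM, and held 188 of the 872 members without a Sulf1 UMI. Foxp2 was undetected in 303 members and Hs3st4 in only 4. By the rule, every member without a Rxfp1 UMI held Sulf1, and every member without a Sulf1 UMI held Rxfp1. Opposite levels of these markers are therefore partly built into the choice of nuclei. The part of the rule in the difference between clusters 1 and 4 was not tested.

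Clusters 2 and 3 shared high Meis2, a homeobox transcription factor. It stood at 1406 CPM in cluster 2 and 1209 in cluster 3, against 291 and 371 in the respective other members. Cluster 2 was also led by Sema3c, at 95.2 against 14.6 CPM, and Thsd7b, at 2559 against 815. Cluster 3 was led by Dkk2, a secreted Wnt regulator, at 182 against 20.2 CPM, and by the teneurin gene Tenm3, at 3899 against 1109.

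Clusters 5 and 13, with 246 and 29 nuclei, were layer 6b-like. In each, 8 of 11 layer 6b genes with enough counts were at least 2-fold above the other members, namely Ccn2, Cplx3, Moxd1, Drd1, Svil, Tmem163, Inpp4b and Kcnab1. Ccn2, a secreted matrix-associated protein, stood at 57.4 CPM in cluster 5 against 5.06 elsewhere. Moxd1 reached 317 CPM in cluster 13 against 6.74. Foxp2 was low in cluster 13, with 37.0 CPM, against 271 in cluster 5.

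Cluster 8, with 190 nuclei, had the highest Foxp2, 734 CPM. It was led by Syt6, a synaptotagmin of the layer 6 list, at 123 CPM against 6.50 in the other members, and by Sema3a at 104 against 19.1. Cluster 9, with 126 nuclei, was led by the heparan sulfate core protein gene Gpc6, at 3480 against 123 CPM, and had only 7.38 CPM of Sulf1. Its layer 6 corticothalamic genes summed to 1501 CPM against 3869 in the other members, though Tle4 stood at 690. Its near-projecting layer 5/6 genes summed to 4791 CPM against 1062, of which Tshz2 alone gave 3615. Cluster 6, with 219 nuclei, had Nxph1 at 1020 against 54.4 CPM and Cntn6 at 1486 against 88.3. Near-projecting genes summed in it to 3606 CPM against 976, of which Vwc2l gave 1411 and Nxph1 1020. Subiculum genes summed to 1540 CPM against 107, almost all of it Cntn6. In cluster 6, 4 of 5 astrocyte genes were also at least 2-fold up, with none among its top 10 genes, and highest doublet scores were held by 11.9% of its nuclei. Cluster 11, with 40 nuclei, was led by Npsr1 and Hpse2 and held 7.36 CPM of Rxfp1, and its near-projecting genes summed to 5716 CPM against 1103.

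Clusters 7, 10 and 15 also went against the label. Hs3st4 was 1671 CPM in cluster 7 and 1373 in cluster 10, against 2887 or more in clusters 1 to 6, 8, 9, 11 and 13. Tle4 was 140 and 177 CPM and Tbr1 5.32 and 13.4. In cluster 10, 5 of 7 thalamic genes with enough counts were at least 2-fold up, among them Slc17a6, the glutamate transporter of thalamic neurons, at 32.9 CPM, and in cluster 7, 3 of 6 CA1 genes and 3 of 4 oligodendrocyte precursor genes were. Highest doublet scores were held by 19.3% of cluster 7 and 24.8% of cluster 10. Cluster 15, with 16 nuclei, was further from it on each of these genes, with Hs3st4 at 544 CPM, Tle4 at 22.7 and Tbr1 at 0, and had Rxfp1 at 1774.

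Clusters 12, 14 and 16 were small and carried the genes of other cells. Cluster 12, with 34 nuclei, was led by Glis3, Dock10 and Synpr and had 5 granule genes at least 2-fold up. Cluster 14, with 26 nuclei, was led by genes of oligodendrocytes such as the myelin gene Mog, and cluster 16, with 16 nuclei, by the microglial genes Inpp5d and Siglech. Highest doublet scores were held by 82.4%, 88.5% and 50.0% of their nuclei. Together they made up 2.82% of members.

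**Figure D1:**
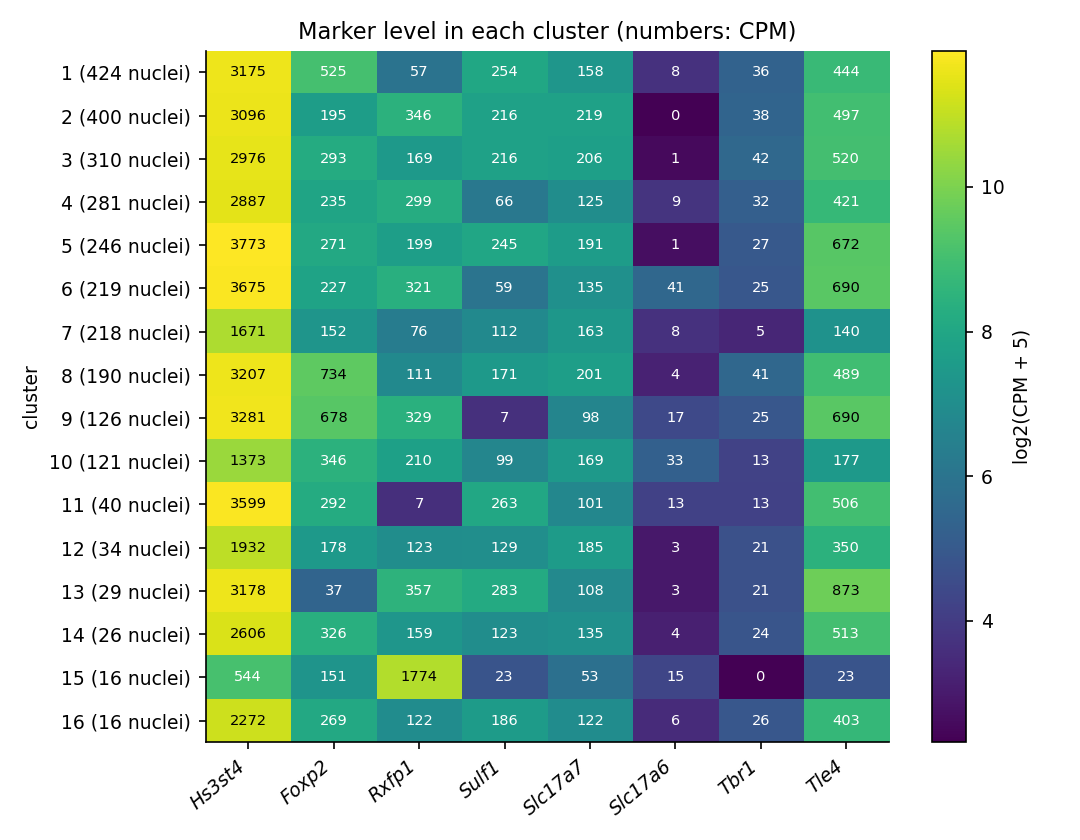
Levels of the 4 marker genes and of excitatory and layer 6 genes in each of the 16 clusters of members, as CPM (numbers) and as log2(CPM + 5) (colour). Hs3st4 is high in all clusters except 7, 10, 12 and 15, while Rxfp1 is low in clusters 1 and 11 and Sulf1 in cluster 9.

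Members differed in number from mouse to mouse. The young AL mice gave 288, 193 and 86 members, or 3.49%, 1.94% and 1.09% of their retained nuclei. The old AL mice gave 98, 195 and 190 members, or 2.79%, 1.94% and 2.87%. The young and old AL mice overlapped, with group means of 2.17% ± 1.22 (SD, n = 3) and 2.53% ± 0.51 (SD, n = 3).

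Restricted mice lay at both ends of the range. Under acute DR there were 159, 20 and 319 members, or 1.77%, 0.28% and 2.59%, and under long-term DR 377, 336, 170 and 265, or 3.69%, 4.16%, 3.88% and 3.36%. All 4 long-term DR mice were above every old AL and every acute DR mouse. Their mean was 3.77% ± 0.34 (SD, n = 4), and that of the acute DR mice was 1.54% ± 1.17 (SD, n = 3).

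No difference in share passed the test. On the log2 odds scale, long-term DR exceeded old AL by 0.61, with a two-sided exact permutation p of 0.0571 and 0.114 after Benjamini-Hochberg adjustment over 4 comparisons. Long-term DR exceeded acute DR by 1.83, with the same exact permutation p of 0.0571 and 0.114 adjusted, and 0.0571 is the smallest p that 4 against 3 mice allow. Without acute DR mouse 2 that difference was 0.84 (exact permutation p = 0.133, the smallest that 4 against 2 mice allow). The acute difference from old AL was -1.22 (exact permutation p = 0.2, adjusted 0.267), and without acute DR mouse 2 it was -0.23. Old against young AL differed by 0.36 (exact permutation p = 0.7), and 3 against 3 mice cannot go below 0.1.

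The share depended on what it was a share of. Among nuclei with a Slc17a7 UMI and no Prox1, the long-term and old AL mice overlapped, and the difference was 0.45 log2 odds (exact permutation p = 0.286). With that denominator long-term and acute DR mice did not overlap, and differed by 1.92 (exact permutation p = 0.0571). After each nucleus was thinned to 3000 UMIs, which left out 20794 shallower nuclei, the young AL shares were 2.08%, 1.68% and 0.88% and the old AL shares 1.28%, 1.20% and 1.51%. The thinned shares under long-term DR were 1.96%, 2.64%, 2.38% and 1.97%, again above every old AL mouse, and under acute DR 0.75%, 0.21% and 1.60%. Each share rests on how whole hippocampi were dissected and how many nuclei of other classes were caught, and the part of these was not tested.

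**Figure D2:**
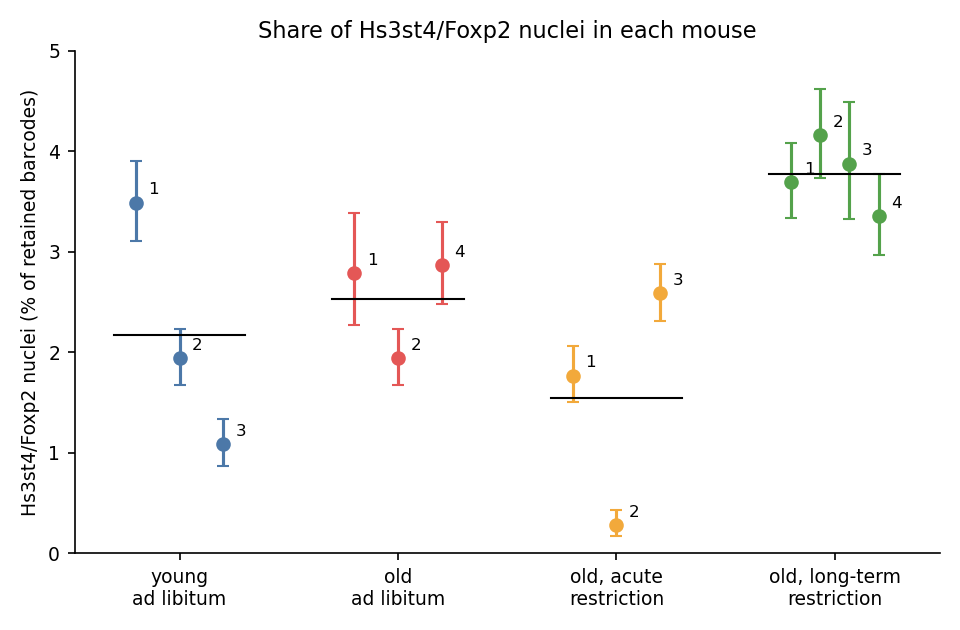
Percent of retained nuclei that were members in each of the 13 mice, by group; points are mice, error bars are 95% exact binomial intervals for counting error only, and horizontal bars are group means. The 4 long-term DR mice lie between 3.36% and 4.16%, above all old AL and acute DR mice, and acute DR mouse 2 is lowest with 0.28%.

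Which clusters the members belonged to differed sharply between mice of 1 group. Clusters 2 and 3 together held 39.6%, 26.9% and 17.4% of members in the young AL mice, and 35.7%, 0% and 1.58% in old AL mice 1, 2 and 4. They held 3.14%, 0% and 24.5% under acute DR and 43.8%, 42.3%, 7.06% and 33.6% under long-term DR. Cluster 8 took much the opposite course.

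Cluster 8 held 2.04% of members in old AL mouse 1 but 28.7% and 33.2% in old AL mice 2 and 4. It held 8.18%, 35.0% (7 of 20 members) and 1.57% under acute DR. It held 0.27%, 1.49%, 20.6% and 0% under long-term DR, and at most 2.33% in a young AL mouse. No label of age, diet or number separates these mice, and the clusters were chosen after their values were seen, so no test was made. Clusters 7 and 10 took 30.8% of members in acute DR mouse 1 and 8.16% to 15.0% in the other mice.

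The remaining sets were present more evenly. Clusters 1 and 4 held 14.1% to 44.2% of members over the mice. Clusters 6, 9 and 11 held 8.93% to 25.0%, and the layer 6b-like clusters 5 and 13 held 0% to 16.4%. The 25.0% and the 0% were both of acute DR mouse 2, with 20 members. Without that mouse the ranges were 8.93% to 17.1% and 4.15% to 16.4%. The mix of clusters 2, 3 and 8 was uneven between mice of the groups compared below. Values from a fit with the share of clusters 2 and 3 as a covariate are given for ageing and long-term DR.

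**Figure D3:**
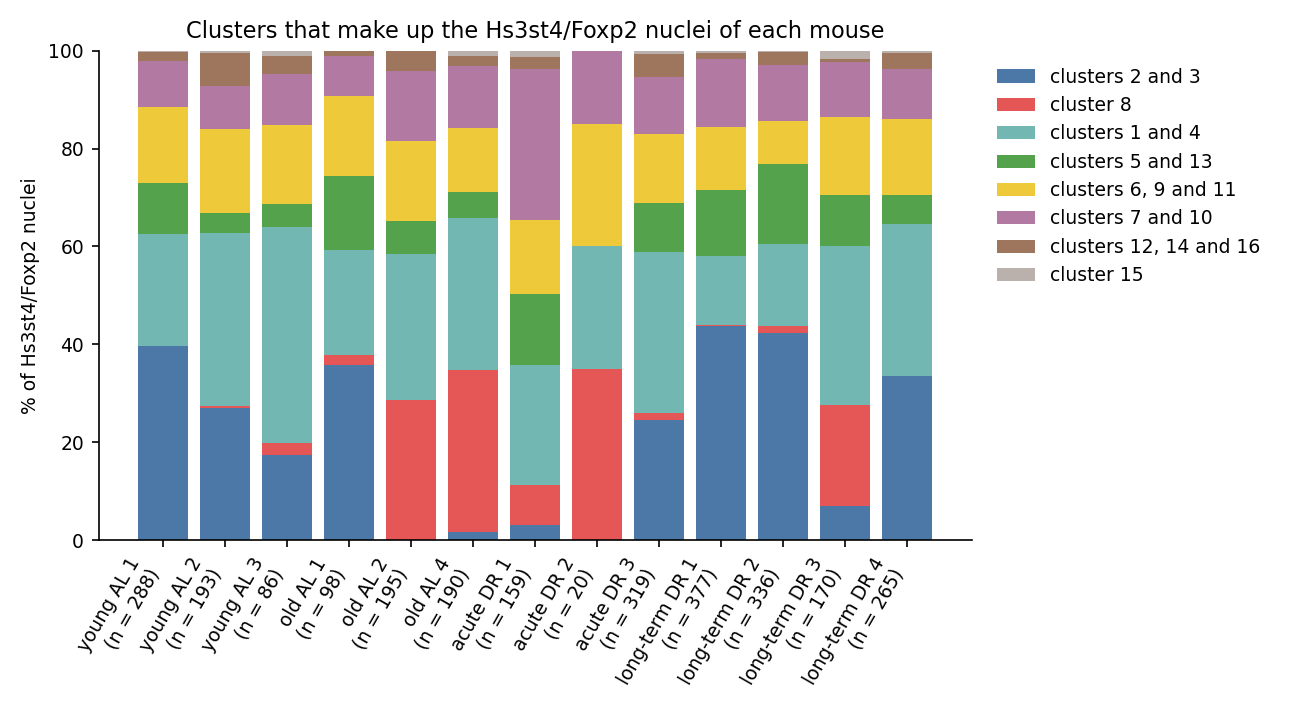
Percent of each mouse's members in sets of clusters, stacked to 100%, for the 13 mice. Clusters 2 and 3 are nearly absent in old AL mice 2 and 4 and acute DR mice 1 and 2, where cluster 8 holds 8.18% to 35.0%.

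Ageing was compared first, between old and young mice fed ad libitum. Raw counts were summed over the members of each mouse and 12020 genes were tested in all 13 mice with edgeR's quasi-likelihood test. No gene passed an adjusted p of 0.05 (0% of genes), and the smallest adjusted p was 0.141. An unadjusted p below 0.05 was reached by 918 genes in the higher direction (7.64%) and 1014 in the lower (8.44%), where chance alone would give 601 in all. DESeq2, another count model, called 46 genes higher and 41 lower, 0.724% of those tested. With a term for the 4 libraries numbered 1, edgeR called 53 higher and 158 lower, or 1.76%.

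Depth moved with age. The median UMI count of members was 7967.5, 4775 and 6466.5 in the young AL mice and 14552.5, 8591 and 9751.5 in the old AL mice, without overlap. With that median as a covariate no gene passed, and 2.7% of genes reached an unadjusted p below 0.05 in the higher direction and 4.39% in the lower. The fold changes below are given as log2 values with their standard errors (SE), and levels as log2 CPM with a prior count of 2.

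Values of the young and old AL mice did not overlap for 12.8% of genes in the higher and 7.5% in the lower direction. The 5 genes with the smallest p in the higher direction among them are given first. Nell1, a secreted signalling protein, stood at 6.31, 6.17 and 6.29 log2 CPM in the young mice and 7.05, 7.06 and 7.29 in the old, a log2 difference of 0.86 (SE 0.17, edgeR adjusted p = 0.141). Nrxn3, a presynaptic neurexin that can carry heparan sulfate, stood at 11.35, 10.87 and 11.29 against 11.88, 12.20 and 12.43, a difference of 0.98 (SE 0.20). Zbtb16, a zinc finger repressor and known glucocorticoid target, stood at 6.55, 6.48 and 6.97 against 7.33, 7.61 and 7.41, a difference of 0.77 (SE 0.16). Nhsl2, a relative of the Nance-Horan syndrome gene, and the adhesion gene Dscaml1 differed by 0.74 and 0.65.

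The 5 genes in the lower direction were mostly short. Mettl23, a methyltransferase, stood at 6.43, 6.61 and 6.60 log2 CPM in the young mice and 5.62, 4.98 and 5.13 in the old, a log2 difference of -1.33 (SE 0.23, edgeR adjusted p = 0.141). Cox6c, a subunit of respiratory complex IV, stood at 5.47, 5.54 and 4.79 against 4.60, 4.37 and 3.91, a difference of -1.11 (SE 0.24). Ptma, which encodes prothymosin alpha, differed by -0.94, and the noncoding genes 6430590A07Rik and Gm16541 by -1.04 and -1.33.

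All 10 of these genes were called by DESeq2, with adjusted p from 0.00239 to 0.0313, and by edgeR with the term for libraries numbered 1, with adjusted p from 0.0123 to 0.0244. With edgeR on the filtered genes and no added term none was called, while with no filter on low counts all 10 were. A replicate block called 8 of them, leaving out young AL mouse 1 called 5, and nuclei with all 4 markers, or leaving out old AL mouse 1 or long-term DR mouse 3, called 1 each. Their directions also held in the fit with the share of clusters 2 and 3, where Nell1 differed by 0.78 and Mettl23 by -1.13. Mettl23 overlaps Mfsd11 on the same strand, and Nell1 overlaps 4933405O20Rik, so reads of these pairs may have been assigned to either gene. Nell1 lies at chr7:49974864-50866608 and Mettl23 at chr11:116843278-116854263 in mm10.

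**Figure D4:**
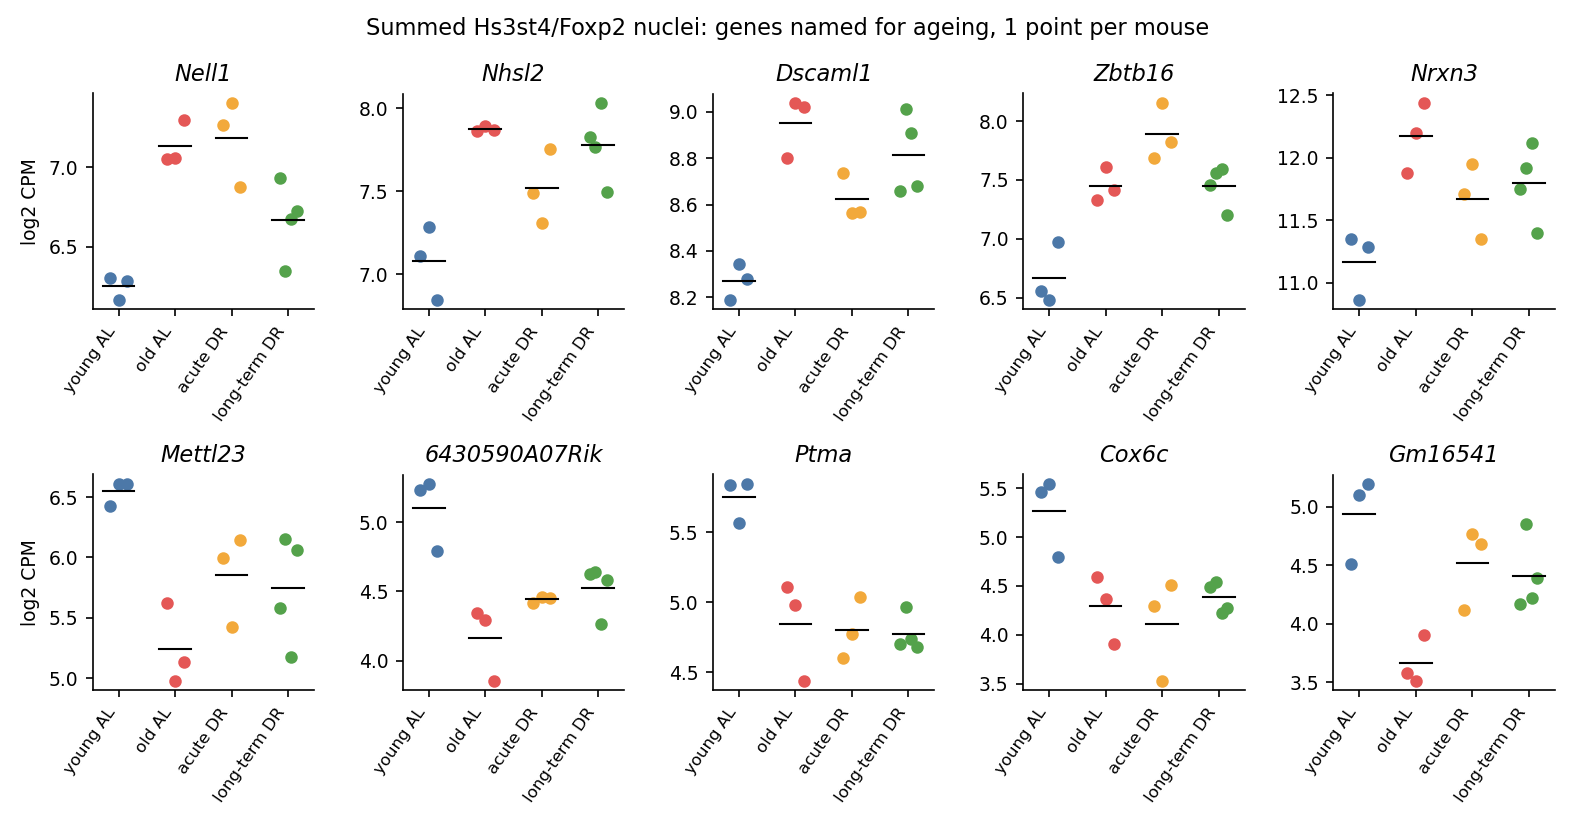
Levels of the 10 genes named in the text for ageing, as log2 CPM in each of the 13 mice by group. Points are mice and bars are group means. The genes have the smallest unadjusted p in each direction among genes without overlap between young and old AL mice. By this choice the young and old AL points do not overlap in any panel, for example 6.17 to 6.31 against 7.05 to 7.29 for Nell1. The DR groups lie between or beside the AL groups.

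Gene length moved with the ageing differences. Across 12016 genes with a known span, Spearman's rho between span and ageing log2 difference was 0.478, a description across genes that are not independent. Genes with an unadjusted p below 0.05 had a median span of 128 kb in the higher and 12.2 kb in the lower direction, against 30.7 kb over all genes. The same rho was -0.02, -0.02 and 0.01 in the comparisons of long-term DR, acute DR and the DR groups with each other. With the length trend removed, no gene passed in the ageing comparison, where 4.24% of genes had an unadjusted p below 0.05 in the higher and 5.88% in the lower direction. Counts of that p in the lists below are read against 7.64% higher and 8.44% lower over all genes, and most are given again without the length trend or with median UMIs as a covariate.

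Heparan sulfate is the substrate of Hs3st4 and Sulf1. Of 21 tested synthesis and editing genes, 3 had an unadjusted p below 0.05 in the higher direction and none in the lower, with a median log2 difference of 0.21 against -0.03 over all genes. Without the length trend 2 were higher and the median was 0.05, and with the depth covariate 1 was higher and 1 lower and the median was 0.13. Ext1, which builds the chain, had a difference of 0.41 (SE 0.13), and Hs6st3 and Xylt1 had 0.24 and 0.20. The others with a low p, named after their values were seen, were Hs3st2 with 0.88 (SE 0.26) and Hpse2, a heparanase relative, with 1.88 (SE 0.47). Hpse2 leads cluster 11, which held 35.0% of its nuclei from old AL mouse 2. Among 11 core proteins, 2 were higher with a low p. Of 7 relaxin family genes other than Rxfp1, none had enough counts to be tested.

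Layer 6 regulators had a higher median than any other list in this comparison. That did not hold without the length trend, with the depth covariate or with the share of clusters 2 and 3 as a covariate. In the last of these fits the median was 0.23, below the 0.25 of the heparan sulfate core proteins. Of 14 tested, 3 reached an unadjusted p below 0.05, all higher in old AL mice, and the median difference was 0.32. Without the length trend 1 was higher and the median was 0.12, below the 0.13 of the MHC class I and interferon list, and with the depth covariate 2 were higher. Zfpm2 differed by 0.42 (SE 0.17), Nfib by 0.52 (SE 0.13) and Zeb2, named after its value was seen, by 0.46 (SE 0.15). Tle4 differed by only 0.05 and Sox5 by 0.21. Among 9 Foxp relatives and targets, 1 was higher by that p and none lower. Without the length trend none was higher and 1 was lower, and with the depth covariate none was either. In the main fit Foxp1 differed by 0.37 (SE 0.12) and Cntnap2, a neurexin-like target of Foxp2, by 0.12.

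The channel and glutamate receptor lists hold long genes. Of 40 potassium, sodium and calcium channel genes, 14 had an unadjusted p below 0.05 in the higher direction and none in the lower. Their median was 0.25, but 0.05 without the length trend, where 4 were higher and 1 was lower by that p, and with the depth covariate 4 were higher. Kcnip4, Kcnd2 and Kcnma1, all parts or partners of potassium channels, differed by 0.76 (SE 0.31), 0.52 (SE 0.19) and 0.57 (SE 0.15). Of 23 glutamate receptor genes, 7 had a low p in the higher direction, with a median of 0.26. Without the trend none was higher and 3 were lower, with a median of 0.03, and with the depth covariate 1 was higher and 1 lower. Grm5, Grm7 and Gria2 differed by -0.14, 0.03 and 0.26.

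The other neuronal lists differed in their counts. Of 25 neuromodulator receptors, 4 had a low p in the higher and 2 in the lower direction, with Chrm3, a muscarinic receptor, at 0.43 (SE 0.18) and Htr1f at 0.01. Of 32 synaptic adhesion genes, 4 were higher and 1 lower, and none and 3 without the trend, and Ptprd and Tenm2 differed by 0.23 and 0.08. Of 31 axon guidance genes, 5 were higher and 1 lower, and 1 and 2 without the trend, with Epha5 at -0.35 and Dcc at 0.13. Of 11 GABA-A receptor genes 1 was higher, and Gabrb1 differed by 0.14. Of 19 insulin, IGF and FoxO genes 5 were higher, among them the receptor gene Igf1r with 0.43 (SE 0.15), and 1 was without the trend and none with the depth covariate.

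Oxidative phosphorylation and heat shock genes, which are short, had medians below 0 in old AL mice. Of 17 oxidative phosphorylation subunits 8 had a low p in the lower direction and none in the higher, with a median of -0.62. Without the trend 2 were lower and 1 higher, with a median of -0.34, and with the depth covariate 5 were lower, with a median of -0.53. Atp5a1 differed by -0.61 (SE 0.21) and Ndufs1 by 0.05. Of 8 heat shock genes 5 were lower by that p, with a median of -0.76. Without the trend 2 were lower, with a median of -0.49, and with the depth covariate 4 were, with a median of -1.22. Hspa8 stood at 7.49, 6.44 and 5.68 log2 CPM in the young and 5.97, 5.01 and 4.83 in the old mice, in order of their library numbers, so the groups overlapped. With the term for libraries numbered 1, edgeR called Hspa8, Cox6c and Cox7c lower, and of the lists above Nfib, Kcnd3, Kcnh5 and the core protein gene Nrxn3 higher.

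All 10 tested immediate early genes were below 0 in this comparison. Of them 4 had an unadjusted p below 0.05, against 8.44% of all genes, and the median was -0.63. Without the length trend 1 was lower, with a median of -0.38, and with the depth covariate none was, with a median of -0.44. Homer1, with the highest mean log2 CPM of the list, differed by -0.08, and Junb, named after its value was seen, by -1.19 (SE 0.37). Glucocorticoid and clock genes had medians of 0.13 and 0.02, and the 5 tested MHC class I and interferon genes had 0.04. Of 9 tested genes that earlier results of these data had called with age in several cell classes, 3 were higher and 4 lower with a low p, which is not independent of those results.

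The ageing lists were also fitted with the share of clusters 2 and 3 as a covariate. In that fit 4.88% of all genes had an unadjusted p below 0.05 in the higher and 5.12% in the lower direction. By that p 1 heat shock gene was lower (median -0.48), 5 oxidative phosphorylation genes were (median -0.38) and 2 immediate early genes were (median -0.52). In the higher direction were 8 channel genes, 5 synaptic adhesion genes, 5 layer 6 regulators and 3 glutamate receptor genes. Also higher were 2 axon guidance genes, 3 insulin pathway genes and 3 heparan sulfate genes. In the synaptic adhesion and axon guidance lists 1 gene each was lower.

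**Figure D5:**
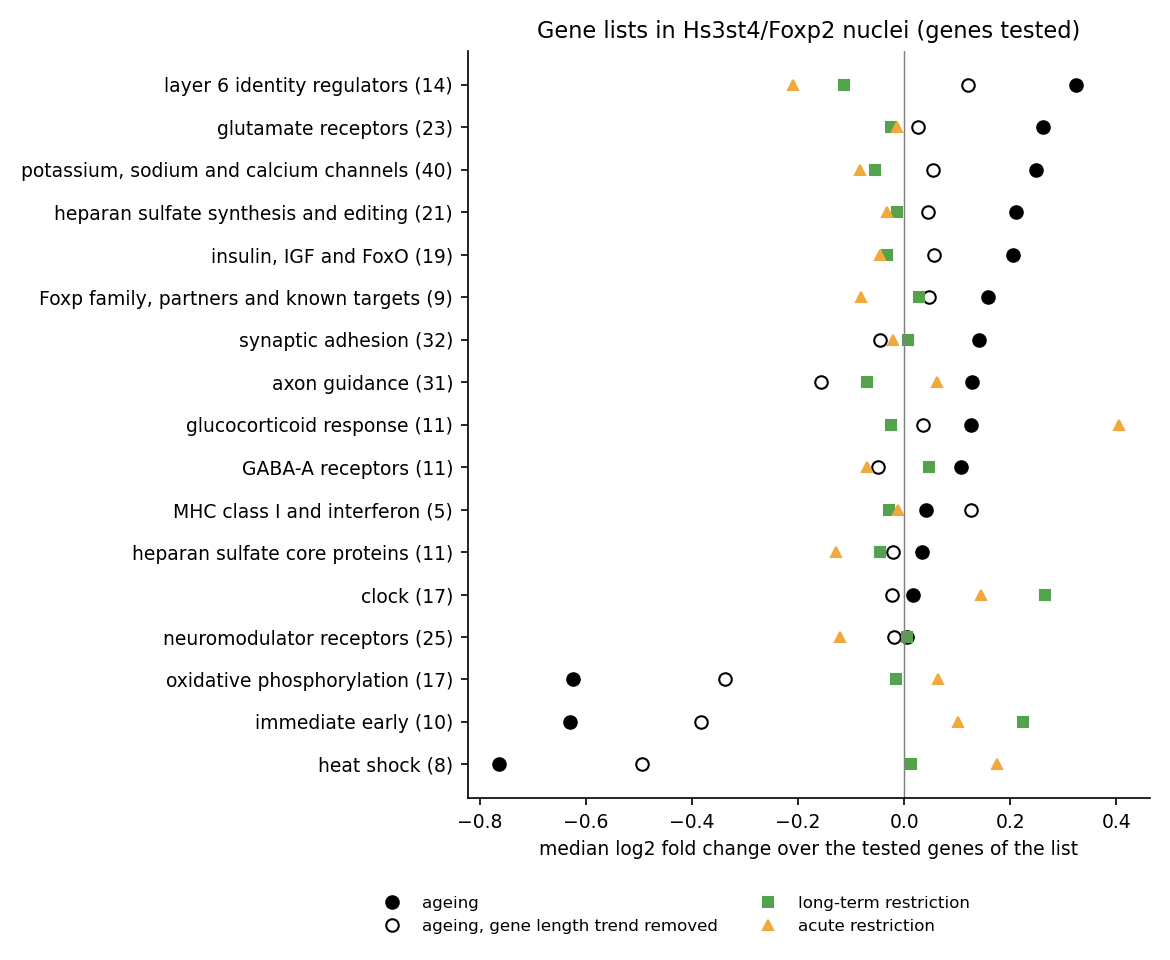
Median log2 fold change of the tested genes of each list in members (numbers of genes in brackets), for ageing (filled circles), ageing with the gene length trend removed (open circles), long-term DR (squares) and acute DR (triangles), each against its control group. Most neuronal lists move towards 0 when the length trend is removed, heat shock, immediate early and oxidative phosphorylation genes stay below 0, and the clock and immediate early lists stand at 0.27 and 0.22 under long-term DR.

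Long-term DR was compared with old AL mice to ask what restriction begun at 5 months of age changed in these neurons. No gene passed (0%), 280 had an unadjusted p below 0.05 in the higher direction (2.33%) and 282 in the lower (2.35%), fewer than the 601 expected by chance. DESeq2 called 1 gene (0.00832%). That gene, the noncoding Gm32200, stood at 4.04, 3.71 and 3.69 log2 CPM in old AL mice and 1.86, 2.02, 2.55 and 1.45 under long-term DR, a log2 difference of -2.16 (SE 0.37, edgeR adjusted p = 0.147, DESeq2 adjusted p = 0.0468). The old AL values were all above the long-term DR values, but each rests on few counts.

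Other genes with the smallest p had edgeR adjusted p from 0.775 to 0.972. Adipor2, an adiponectin receptor, stood at 4.52, 4.77 and 4.63 log2 CPM in old AL mice and 5.07, 5.37, 5.52 and 5.40 under long-term DR, a difference of 0.69 (SE 0.19). Dcn, the matrix proteoglycan decorin and a marker of fibroblasts, differed by 1.11 (SE 0.31), and the part of other cells in it was not tested. Morn2 differed by 0.87 and the noncoding Gm49164 by 1.58. Mertk, a phagocytic receptor, differed by 2.22 (SE 0.52), and it stood at 301 CPM in the microglial cluster 16 against 7.24 in the other members and at 58.7 in cluster 6 against 4.36, whose part was not tested. In the lower direction stood the noncoding Gm32014 with -0.74, the protocadherin Pcdhb17 with -1.46, Kank4 with -2.33 and Clic5 with -1.84. All of these were chosen among genes without overlap between the groups. Such genes made up 4.5% of all genes in the higher and 3.1% in the lower direction. Gm49164 and Clic5 differed less, by 1.16 and -1.09, in the fit that held the share of clusters 2 and 3. Clic5 stood at 57.0 CPM in cluster 11 against 3.78 in the other members. Old AL mouse 2 gave 35.0% of the nuclei of cluster 11, whose part was not tested.

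Clock genes were mostly above 0 under long-term DR. Of 17 tested, 15 were above 0 and 4 had an unadjusted p below 0.05 in the higher direction, against 2.33% of all genes, with a median of 0.27 against 0.00. Without overlap between the groups were 4, against 4.5% of all genes. With the share of clusters 2 and 3 as a covariate, 3 had that p and the median was 0.13. Per2, a core clock repressor named after its values were seen, stood at 4.43, 4.71 and 4.75 log2 CPM in old AL mice, 5.04, 5.71, 5.43 and 5.25 under long-term DR and 5.54, 6.11 and 5.05 under acute DR. It differed from old AL by 0.73 (SE 0.23) and 0.82 (SE 0.26), and every restricted mouse was above every old AL mouse. Ciart, a circadian repressor also named after its values were seen, differed by 1.16 (SE 0.39) and 1.64 (SE 0.43), but long-term DR mouse 1, at 2.83 log2 CPM, was below old AL mouse 1, at 2.90. Rora, the clock gene with the highest mean log2 CPM, differed by 0.07 and 0.12. Both comparisons share the old AL mice, and the time of day of sampling is not given in the sources used here.

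Immediate early genes had a median of 0.22 under long-term DR, with 7 of 10 above 0 and none with an unadjusted p below 0.05. The 9 genes that earlier results of these data had called with age, not independent evidence, had a median of 0.40, with 2 higher by that p, and 0.17 with the share of clusters 2 and 3 as a covariate. Grm5, a metabotropic glutamate receptor, differed by 0.45 (SE 0.16) and Epha5 by 0.43 (SE 0.18). Fezf2, named after its value was seen, differed by -0.60 (SE 0.22) and Hpse2, a leading gene of cluster 11, by -1.08 (SE 0.36). The glucocorticoid, insulin and oxidative phosphorylation lists had medians of -0.02, -0.03 and -0.02.

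Acute DR was compared with old AL mice to ask the same of restriction begun late. No gene passed in edgeR (0%) or DESeq2, 230 had an unadjusted p below 0.05 in the higher direction (1.91%) and 269 in the lower (2.24%), again below 601, and the smallest adjusted p was 0.443. Trhde, an enzyme that degrades thyrotropin-releasing hormone, stood at 8.17, 8.08 and 8.30 log2 CPM in old AL mice and 7.18, 7.31 and 7.24 under acute DR, a difference of -0.96 (SE 0.20, edgeR adjusted p = 0.443). The long-term DR mice, at 8.40, 7.91, 8.31 and 7.52, were all above the acute DR mice.

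Slco3a1, an organic anion transporter, stood at 6.70, 6.66 and 6.80 log2 CPM in old AL mice and 7.41, 7.35 and 7.01 under acute DR, a difference of 0.53 (SE 0.14). The phosphatase genes Ptprz1 and Ptprm differed by 1.06 (SE 0.20) and 1.81 (SE 0.47). Ptprm stood at 61.8 CPM in cluster 10 against 8.21 in the other members. Cluster 10 held 10.7%, 0% and 4.39% of members in acute DR mice 1, 2 and 3. In old AL mice 1, 2 and 4 it held 4.08%, 1.03% and 2.11%, and its part in the Ptprm difference was not tested. The polarity gene Pard3b differed by 1.70 (SE 0.36). In the lower direction stood Oprd1, the delta opioid receptor, with -0.90 (SE 0.23), the chemokine Ccl27a with -1.56, Gm1976 with -0.65 and Gm31282 with -1.18. Again these were chosen among genes without overlap between the groups, which made up 4.15% of all genes higher and 6.76% lower. The edgeR adjusted p of the chosen genes ran from 0.443 to 0.740.

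Glucocorticoid response genes had the highest list median under acute DR. Of 11 tested, 8 were above 0 and 1 had an unadjusted p below 0.05 in the higher direction, against 1.91% of all genes, with a median of 0.40 against -0.01. That gene was Zbtb16, at 7.33, 7.61 and 7.41 log2 CPM in old AL and 7.69, 8.15 and 7.82 in acute DR mice, a difference of 0.40. The receptors themselves, Nr3c1 and Nr3c2, differed by 0.05 and -0.02. Layer 6 regulators had a median of -0.21, with 1 of 14 above 0, Zfpm2 at -0.22 and Sox5 at -0.31 (SE 0.15), and the immediate early gene Homer1 differed by 0.58 (SE 0.25).

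The restricted groups were last compared with each other. No gene passed in edgeR (0%), 187 genes had an unadjusted p below 0.05 in the higher (1.56%) and 179 in the lower direction (1.49%), and DESeq2 called 1 gene (0.00832%). That was Zbtb20, a transcriptional repressor of hippocampal development, at 9.29, 9.75 and 8.54 log2 CPM under acute DR and 8.10, 8.24, 7.91 and 8.02 under long-term DR, a difference of -1.20 (SE 0.26, DESeq2 adjusted p = 0.0168, edgeR adjusted p = 1.00). The groups did not overlap, as was so for 1.77% of genes in that direction and 4.44% in the other, and the old AL mice stood at 8.85, 8.88 and 8.80. Zbtb20 stood at 2125 CPM in cluster 12, which carries granule genes, against 310 in the other members. Cluster 12 held 1.26%, 0% and 1.57% of members in acute DR mice 1, 2 and 3. In the long-term DR mice it held 0.80%, 0.89%, 0% and 1.13%, and its part in the Zbtb20 difference was not tested.

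Trhde was higher under long-term DR by 0.82 (SE 0.19), Selenbp1, a selenium-binding protein, by 2.23 on low counts, Zmiz1os1 by 0.61, Rgsl1 by 0.87 and Tbc1d24 by 0.60. In the lower direction stood Wipf3 with -0.89, Tgfbr1, a TGF-beta receptor, with -1.46, Myo6 with -0.72 and the Tle4 relative Tle1 with -1.04. All had edgeR adjusted p of 1.00. Tgfbr1 stood at 422 CPM in cluster 16, which carries microglial genes, and at 7.16 in the other members. Microglial genes summed to 30 to 184 CPM over the mice, with the highest value in young AL mouse 2, and their part in the Tgfbr1 difference was not tested.

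A test of the difference from the Fn1 excitatory nuclei asked whether the members responded in another way than a neighbouring class. It held 12 mice with at least 10 nuclei of each class, only 2 of them under acute DR, and 12992 genes. On simulated ageing counts, a test of this kind recovered 6% of 100 genes changed 2-fold and 60% of 100 changed 4-fold. Most 2-fold differences between the classes could therefore be missed. No gene passed for ageing (0%, 529 or 4.07% with an unadjusted p below 0.05) or long-term DR (0%, 506 or 3.89% with that p), and 3 genes passed for acute DR (0.0231%, 663 or 5.1% with that p).

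On average, those 3 genes were higher under acute DR in members and lower in the Fn1 nuclei. Pard3b stood at 7.37, 9.67 and 9.04 CPM in members of old AL mice and 37.2 and 26.6 in acute DR mice 1 and 3, against 33.9, 51.9 and 36.1 and then 15.3 and 20.6 in the Fn1 nuclei. The log2 difference between the classes' responses was 3.04 (SE 0.46, edgeR adjusted p = 0.00298), and Pard3b overlaps antisense genes on the other strand. Ak5, a brain adenylate kinase, stood at 303, 316 and 289 CPM in members of old AL mice and 457 and 319 under acute DR, against 279, 237 and 301 and then 184 and 146 in the Fn1 nuclei, a difference of 1.03 (SE 0.19, edgeR adjusted p = 0.0192). The noncoding gene 4930467D21Rik differed by 3.70 (SE 0.59, edgeR adjusted p = 0.00298), but in members only acute DR mouse 1, with 37.2 CPM, was above the old AL mice. Acute DR mouse 1 is also the mouse with 30.8% of its members in clusters 7 and 10, and the part of that mix was not tested.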

How the data were processed

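Raw UMI counts per gene and barcode for 32285 genes were deposited by the authors as sparse matrices, made with Cell Ranger 4.0.0 on mm10 per the submitters' processing notes. The members and gene lists were chosen with earlier results of these data known. Nuclei were filtered and chosen as stated in the report and scored with Scrublet, no member being removed for its score. They were clustered with scanpy 1.11.5 and leidenalg 0.10.2 (30 principal components, 15 neighbours, resolution 0.6). Counts were summed per mouse and tested with edgeR 4.0.16 in R 4.3.3 (TMM factors, filterByExpr, robust glmQLFit) over all 13 mice; the 8 genes of the rule stayed in library sizes and were not tested. Benjamini-Hochberg adjustment covered all genes tested. DESeq2 1.42.0, a replicate block, a term for libraries numbered 1, length and depth corrections and left-out mice were alternatives.

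Named genes were those past the threshold, or the 5 with the smallest p in each direction without overlap where fewer than 3 passed. Also named were the 2 to 4 genes of each list with the highest mean log2 CPM, not corrected for gene length. Genes said to be named after their values were seen fall outside this rule, and a few genes that it names are not reported here. The replicate is the library, 1 per mouse. Replicate numbers shared between groups were not taken as pairing, since the labels do not say that a number pairs mice. Of 16 same-numbered pairs, 8 correlated above 0.1, all 6 of number 1 among them. On simulated counts for the ageing comparison (11720 genes), edgeR recovered 43% of 100 genes changed 2-fold and 91% of 100 changed 4-fold. The changed genes were not drawn from the least abundant ones, so recovery over all genes may be lower.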

Additional observations from a re-analysis of the deposited data

Results flagged for a closer look

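Among 47 groups of 4 mice checked for a single mouse far from the rest, 2 were found, where chance gives about 1 in 20. The level of 6430590A07Rik in long-term DR mouse 3 was 4.26 log2 CPM, against 4.58 to 4.64 in the other 3 mice of that group. The percent of members in cluster 8 was 20.6 in the same mouse and at most 1.49 in the others.

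In the acute DR comparison, 3 genes responded differently in members and in Fn1 excitatory nuclei by edgeR's test of the difference itself. The log2 differences were 3.04 for Pard3b, 1.03 for Ak5 and 3.70 for 4930467D21Rik, with 2 acute DR mice.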

How the results depend on the processing

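The number of genes called by edgeR in the ageing comparison was 0 and rose to 87 with DESeq2, 173 with no filter on low counts, 211 with a term for libraries numbered 1, 10 in nuclei with all 4 markers and 2 with the groups of the contrast alone. Leaving out mice gave 0 to 154 calls, the highest without young AL mouse 1, with 6 without old AL mouse 1. For long-term DR, DESeq2, all 4 markers, median UMIs as a covariate and the groups alone each gave 1 call and no filter gave 4, and leaving out mice gave 0 to 1. For acute DR, all 4 markers, a marker sum of at least 15 and median UMIs as a covariate each gave 1, the groups alone 2 and no filter 8, and leaving out mice gave 0 to 1. For long-term against acute DR, DESeq2 gave 1, no filter 3, and leaving out mice 0 to 3, the highest without acute DR mouse 3. The cause was not tested.

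With a replicate block, 166 genes were called for ageing, 1 for long-term DR and 0 for the others. Same-numbered mice correlated from -0.184 to 0.50 over 16 pairs, 8 of them above 0.1, and 6 of 13 mice correlated best with their own number. All 6 pairs of libraries numbered 1 were above 0.1 (0.145 to 0.50), against 2 of 10 other pairs, so number 1 tied mice across groups while the numbers as a whole were not taken as pairing. The term for the libraries numbered 1 called 536 genes (151 higher, 385 lower), and what the number marks is not given in the sources used here.

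The ageing difference in share changed sign when thinned to 3000 UMIs (-0.14 log2 odds) and ranged from -0.0643 to 0.80 when mice were left out, negative without young AL mouse 3. The other ranges were 0.43 to 0.72 for long-term DR, -1.85 to -0.23 for acute DR and 0.84 (without acute DR mouse 2) to 2.46 for long-term against acute DR. In the test against Fn1 nuclei, no filter gave 18, 19 and 55 calls, and leaving out mice 0 to 2, 0 to 8 and 2 to 27, the last without acute DR mouse 3, where 1 acute DR mouse remained and was assumed to vary like the other groups. Alternatives added after seeing the data, the share of clusters 2 and 3 as a covariate and leaving out clusters 12, 14 and 16, gave 0 calls in all 4 comparisons. The genes named for their p, up to 10 per comparison, kept their sign in each alternative that tested them; genes named for their abundance in a list were not followed this way. In the simulated ageing comparison edgeR recovered 43% of 2-fold changes, so such changes could often be missed there. In the simulated ageing test of the difference between 2 classes it recovered 6% of 2-fold and 60% of 4-fold changes. Recovery was not simulated for the DR comparisons, and members numbered 20 to 377 per mouse.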
